A study of Rattus norvegicus with 25 samples.

Results

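The miR-30 family was examined in small RNA (smRNA) libraries from the sperm of 25 F0 male rats. Members were the rows of the mature miRNA count matrix named miR-30a to miR-30e, both arms of each hairpin included, and 9 of the 562 miRNAs in the matrix met this rule. They were the 5p arms rno-miR-30a-5p, rno-miR-30c-5p, rno-miR-30d-5p and rno-miR-30e-5p and the 3p arms rno-miR-30a-3p, rno-miR-30c-1-3p, rno-miR-30c-2-3p, rno-miR-30d-3p and rno-miR-30e-3p, written below without the prefix for rat. miR-30b was not analysed here. The filter of edgeR on low counts kept 317 miRNAs for testing, 8 members among them, and left out miR-30c-1-3p.

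The sires were Sprague-Dawley rats that pressed a lever for intravenous morphine or saline, and mature sperm came from the cauda epididymis after a double swim-up purification. At the end of self-administration sperm was collected from 7 males given saline (F0_SAL) and 7 given morphine (F0_MOR). After 90 days of abstinence it was collected from 5 males that had taken saline (F0_ABS-SAL) and 6 that had taken morphine (F0_ABS-MOR). The abstinent males were also older at collection, so abstinence, age and any batch of collection cannot be told apart in the timepoint comparisons. Group sizes alone tied the 2 timepoint codes of the matrix columns to nonabstinent and abstinent males, and single libraries are named by the letters of their columns.

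A miRNA hairpin is cut into a 5p and a 3p strand, and usually one of them is kept and loaded into an Argonaute protein. The loaded strand finds its target messenger RNAs mainly through its seed, bases 2 to 8 from its 5′ end. The miR-30 5p arms share one seed and so are predicted to share many targets, whereas their 3p arms carry other seeds. The family is broadly expressed in mammalian tissues and is made from several hairpins in the genome, and sperm carry miRNAs from spermatogenesis as well as some taken up in the epididymis.

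The mature sequences in RefSeq (GRCr8) matched 6 of the 9 members. These are shown because the seed groups the members and the bases after it tell them apart. Capitals mark the seed, and the 5p arms read as follows.

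miR-30c-5p: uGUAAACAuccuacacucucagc
miR-30a-5p: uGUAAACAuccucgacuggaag
miR-30e-5p: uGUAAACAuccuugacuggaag

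The 3p arms with a sequence fell into 2 further seed groups.

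miR-30a-3p: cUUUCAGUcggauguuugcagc
miR-30c-2-3p: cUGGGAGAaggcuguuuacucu
miR-30c-1-3p: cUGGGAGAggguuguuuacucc

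These 5p arms were identical over their first 12 bases. Counted from the 5′ end, miR-30e-5p differed from miR-30a-5p by 1 substitution, C13U, and miR-30c-5p differed from miR-30a-5p by 5, namely C13A, G14C, G18C, G19U and A20C. The authors' mapping allowed a mismatch, so reads of miR-30a-5p and miR-30e-5p could have been split between these members. Their separate counts are uncertain to that extent. miR-30d-5p, miR-30d-3p and miR-30e-3p had no sequence here, so such a split was not checked for them. This limit also holds for the ratios with miR-30d-5p below. The 3p arms of miR-30c-1 and miR-30c-2 shared their seed and differed by 3 substitutions, A9G, C12U and U22C, written from miR-30c-2-3p to miR-30c-1-3p. Outside the family, the matrix held 1 miRNA with the seed of the 5p arms.

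miR-384-5p: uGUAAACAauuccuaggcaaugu

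It had no more than 8 counts in any library and was above 0 in 12 of 25. Seeds could be compared for the 520 miRNAs of the matrix with a sequence.

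miR-30c-5p has 2 source hairpins. In GRCr8, Mir30c1 (chr5:139634455-139634543, minus strand) lies beside Mir30e (chr5:139637450-139637541, minus strand), and both are within the span of Nfyc, a subunit gene of the transcription factor NF-Y. Mir30c2 (chr9:33253682-33253765, plus strand) is 19741 bases from Mir30a (chr9:33233941-33234011, plus strand) and within the span of the long non-coding RNA gene LOC134480562. The reads of miR-30c-5p therefore could not be assigned to one hairpin, but its 3p partners differ in sequence. miR-30c-2-3p had 238 to 603 counts per library, against 2 to 13 for miR-30c-1-3p.

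Libraries held 1032386 to 3203211 miRNA counts, with group medians of 1701012 (F0_SAL), 1428308 (F0_MOR), 2334377 (F0_ABS-SAL) and 2134169 (F0_ABS-MOR). A count of 0 would allow a share of at most 0.000291% of the shallowest library, counting error alone. miRNAs known from sperm and late germ cells (the miR-34b/c and miR-449 group) held 22.2% to 57.7% of counts. No summed level of the lists for leukocytes, erythroid cells, epithelium, endothelium, and muscle and stroma was at 0 in any library. The muscle and stroma list stood highest in library R of F0_ABS-SAL, at 81492 CPM (counts relative to library size, scaled by TMM) against 13027 to 36214 in the other libraries. The called change, the passing ratios and the shares of miR-30c-5p in the saline arm are given with and without library R.

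The family made up 2.57% to 4.11% of all miRNA counts, with a median of 3.16%. Members covered a wide range of levels, and the 5p arm dominated its 3p partner for miR-30a, miR-30c and miR-30d in 25 of 25 libraries. Highest was miR-30c-5p at 11918 ± 3324 CPM (SD, n = 25), which ranked 16th of 562 miRNAs. It was followed by miR-30d-5p at 7814 ± 1051 CPM and miR-30a-5p at 7398 ± 2336 CPM. The order of the last pair was not stable, with miR-30d-5p the higher in 15 of 25 libraries, whereas miR-30c-5p exceeded miR-30d-5p in 23 of 25.

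miR-30e-5p averaged 2997 ± 754 CPM and its 3p arm 1447 ± 836 CPM (SD, n = 25), and the 5p arm was the higher in 21 of 25 libraries. miR-30a-3p averaged 787 ± 437 CPM, miR-30c-2-3p 213 ± 42.9 CPM and miR-30d-3p 66.9 ± 16.1 CPM. Every other pair of neighbours in the order kept its direction in 25 of 25 libraries. miR-30d-5p was the steadiest of the 5p arms, with 1.73-fold between its lowest and highest library, and miR-30a-5p the most variable, with 4.09-fold.

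**Figure D1:**
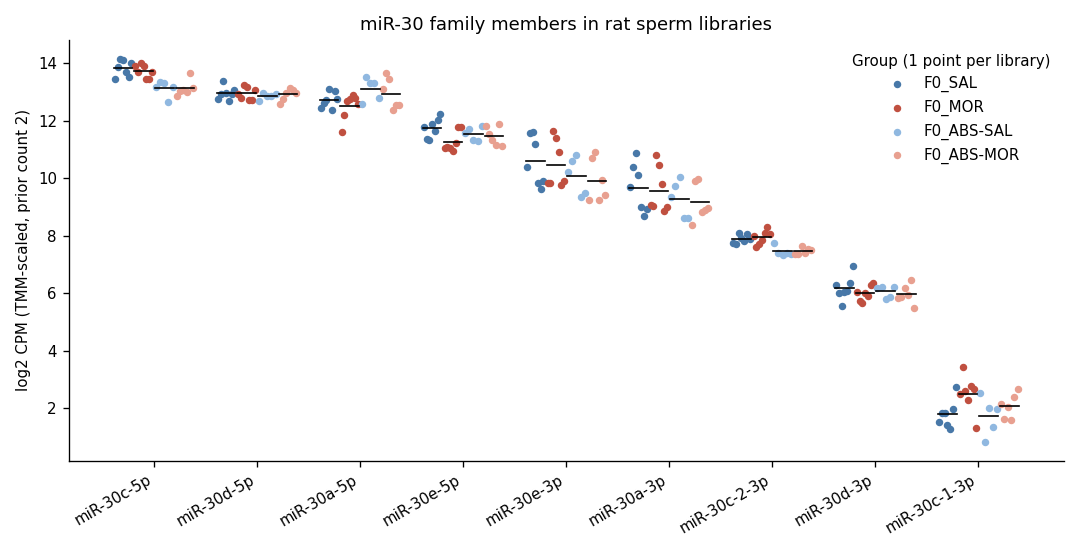
Levels of the 9 miR-30 members on a log2 CPM scale (TMM-scaled, prior count of 2) in 25 sperm libraries, 1 point per library, coloured by group, with group means as lines. With this scaling, miR-30c-5p is lower in both abstinent groups and miR-30d-5p stays at a similar level. The 3p arms of miR-30a and miR-30e spread most among the tested members.

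Between nonabstinent and abstinent males, miR-30c-5p was the only member called with TMM, and it was lower in both arms. It was at 11028, 15044 and 17938 CPM (lowest, median and highest) in F0_SAL. In F0_ABS-SAL it was at 6410, 9211, 9274, 10025 and 10468 CPM, so the groups did not overlap with TMM. Scaled by library totals alone they did overlap, at 8935 to 16937 CPM in F0_SAL and 6588 to 12155 CPM in F0_ABS-SAL. How many miRNAs outside the family separated in this way was not counted. Its log2 fold change was −0.69 ± 0.17 (SE), or 0.618-fold, with an adjusted p of 0.0045 in edgeR's quasi-likelihood test. Library R was the lowest of F0_ABS-SAL, and without it the log2 fold change was −0.63 (adjusted p = 0.0208).

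In the morphine arm miR-30c-5p was at 11042, 13251 and 16309 CPM (lowest, median and highest) in F0_MOR and at 7351, 8466 and 12915 CPM in F0_ABS-MOR. Here the groups overlapped, through library S of F0_ABS-MOR, the highest of its group. The log2 fold change was −0.59 ± 0.16 (SE), or 0.663-fold, with an adjusted p of 0.0141 in edgeR. This value lies next to the threshold of 0.58 that a call required beside an adjusted p under 0.1. With each library left out in turn it ranged from −0.71 (without S) to −0.54 (without Q), and the call was lost without any one of A, D, G, I, M, Q, U or X because the fold fell short, the adjusted p staying at or below 0.0407.

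miR-30c-5p was the 1 member of 8 called in each timepoint comparison. Of all miRNAs tested, 33.1% were called for F0_ABS-SAL against F0_SAL (22.4% higher and 10.7% lower) and 21.1% for F0_ABS-MOR against F0_MOR (11.0% higher and 10.1% lower). The family's share of calls was therefore not above that of miRNAs at large. The 2 timepoint comparisons share no libraries. The calls depended on scaling, since with library totals alone in place of TMM the median of all miRNAs rose by 0.39 (log2) for F0_ABS-SAL against F0_SAL and 0.18 for F0_ABS-MOR against F0_MOR. The split of calls then moved from 71 higher and 34 lower to 110 and 1 in the saline arm, and from 35 and 32 to 57 and 14 in the morphine arm. Under totals alone the log2 fold change of miR-30c-5p was −0.31 (adjusted p = 0.21) and −0.42 (adjusted p = 0.0811) in edgeR, lower in both but not called, and miR-30a-5p was the member called instead, higher by 0.80 and 0.67.

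With TMM, miR-30a-5p lay on the other side of zero. It was at 5271, 6673 and 8759 CPM (lowest, median and highest) in F0_SAL and at 6140, 7134, 10035, 10248 and 11650 CPM in F0_ABS-SAL. In F0_MOR it was at 3144, 6620 and 7647 CPM and in F0_ABS-MOR at 5269, 7313 and 12871 CPM. The groups overlapped in both arms, and the log2 fold changes of 0.41 ± 0.23 and 0.47 ± 0.22 (SE) did not pass (edgeR, adjusted p = 0.16 and 0.13). With each library left out in turn, miR-30a-5p was called in 0 of 12 runs of the saline arm and 1 of 13 of the morphine arm.

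miR-30c-2-3p, which shares a hairpin with part of the miR-30c-5p reads, was also lower at the abstinent timepoint, by less than the fold a call required. It was at 207, 235 and 270 CPM (lowest, median and highest) in F0_SAL and at 158, 165, 165, 169 and 215 CPM in F0_ABS-SAL, where library E alone reached into the F0_SAL range. In F0_MOR it was at 194, 255 and 311 CPM, and in F0_ABS-MOR at 162, 173 and 197 CPM. Its log2 fold changes were −0.44 ± 0.16 and −0.49 ± 0.15 (SE), with adjusted p of 0.0386 and 0.0254 in edgeR. On the adjusted p alone, 16.1% and 12.9% of all miRNAs were lower in these comparisons. Under totals alone its log2 fold change was −0.062 (adjusted p = 0.81) and −0.29 (adjusted p = 0.20), and without library E it was −0.61 (adjusted p = 0.0095) and was called.

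miR-30d-5p gave log2 fold changes of −0.11 ± 0.15 and −0.036 ± 0.14 (SE), and miR-30e-5p gave −0.23 ± 0.20 and 0.19 ± 0.19, for the saline and morphine timepoint comparisons. Neither passed (edgeR, adjusted p from 0.37 to 0.87). The 3p arms of miR-30e and miR-30a had larger values with larger errors, −0.60 ± 0.41 and −0.60 ± 0.38 for miR-30e-3p and −0.49 ± 0.39 and −0.49 ± 0.37 for miR-30a-3p. They did not pass either (edgeR, adjusted p from 0.25 to 0.37), and with errors this large a fall of that size could be missed. miR-30d-3p was at −0.17 ± 0.21 and −0.024 ± 0.21. Directions of miR-30d-5p, miR-30d-3p and miR-30e-5p turned under some scalings. The median over the 8 members was −0.33 in the saline arm and −0.26 in the morphine arm. Over all miRNAs it was 0.0018 and 0.0015, values that TMM itself sets near 0, and 0.39 and 0.18 with library totals alone. The members are not independent of each other, so these medians do not show a fall of the whole family.

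**Figure D2:**
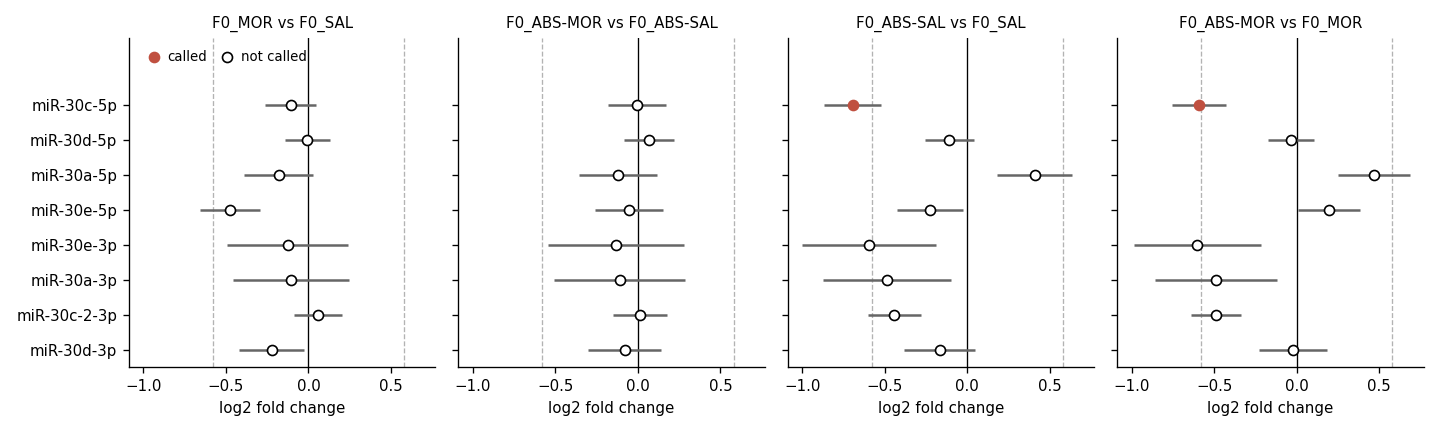
Log2 fold change (points) with its standard error (bars) of the 8 tested miR-30 members in 4 comparisons, from edgeR with TMM scaling, with dashed lines at the fold threshold of 0.58. miR-30c-5p is the filled point in both timepoint panels (−0.69 and −0.59), and no member is filled in the treatment panels.

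Morphine was not followed by a called change in any member. For F0_MOR against F0_SAL 0 of 8 members and 0% of all miRNAs were called, and 1 member, miR-30e-5p, had an unadjusted p under 0.05, as did 7.26% of all miRNAs. It was at 2563, 3479 and 4847 CPM (lowest, median and highest) in F0_SAL and at 1963, 2144 and 3534 CPM in F0_MOR. The groups overlapped, and the log2 fold change of −0.47 ± 0.18 (SE) had an adjusted p of 0.55 in edgeR. After abstinence, F0_ABS-MOR against F0_ABS-SAL gave log2 fold changes between −0.13 and 0.067 over the 8 members, with 0 called, 0 at an unadjusted p under 0.05 (1.26% of all miRNAs) and 0% of all miRNAs called. DESeq2 also called 0 members in both treatment comparisons. For the interaction of treatment and timepoint edgeR called 0 members and 0% of all miRNAs, and 0 members had an unadjusted p under 0.05, against 3.15% of all miRNAs. DESeq2 called 0 members for it too.

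Because 5p members share a seed, their proportions within a library were compared, a measure that does not depend on how libraries are scaled. The proportions shifted between timepoints. miR-30c-5p held 40.6% ± 3.25 (SD, n = 7) of family counts in F0_SAL and 29.7% ± 4.16 (n = 5) in F0_ABS-SAL, and 41.5% ± 5.10 (n = 7) in F0_MOR and 30.3% ± 5.60 (n = 6) in F0_ABS-MOR. miR-30a-5p held 19.0% ± 3.02 and 29.3% ± 5.75 in the saline groups, and 18.3% ± 4.70 and 27.4% ± 8.23 in the morphine groups. miR-30d-5p held means of 22.2% to 26.3% in the 4 groups. Without library R the means of F0_ABS-SAL were 31.3% ± 2.12 for miR-30c-5p and 27.5% ± 4.61 for miR-30a-5p (SD, n = 4). In single libraries, the Wilson 95% interval around the share of miR-30c-5p reached at most 0.556 percentage points to either side, counting error only.

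The count of miR-30c-5p relative to miR-30d-5p separated the timepoints most cleanly. The ratio was 1.48, 1.94 and 2.21 (lowest, median and highest) in F0_SAL and 0.856, 1.21, 1.33, 1.36 and 1.39 in F0_ABS-SAL. In F0_MOR it was 1.57, 1.68 and 1.95, and in F0_ABS-MOR 0.904, 1.15 and 1.51. Abstinent and nonabstinent libraries did not overlap in either arm. The log2 ratio differed by −0.59 ± 0.15 (SE) in the saline arm (two-sided exact permutation test, p = 0.00253, adjusted p = 0.0303) and by −0.57 ± 0.11 in the morphine arm (p = 0.00117, adjusted p = 0.0280). Both are the smallest p that these group sizes can give, and p-values were adjusted over 24 tests, 6 pairs in 4 comparisons. Without library R the saline difference was −0.47 (adjusted p = 0.0727).

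miR-30a-5p relative to miR-30c-5p moved the other way by about 1 log2 unit. The ratio was 0.372, 0.421 and 0.710 (lowest, median and highest) in F0_SAL and 0.667, 0.769, 1.00, 1.11 and 1.60 in F0_ABS-SAL, so miR-30a-5p equalled or exceeded miR-30c-5p in 3 of 5 abstinent saline libraries and in 0 of 7 nonabstinent ones. The difference was 1.08 ± 0.25 (SE), with p = 0.00505 and adjusted p = 0.0404 (exact permutation test). Library R held the highest of these ratios, and without it the difference was 0.90 (adjusted p = 0.0727) and miR-30a-5p equalled or exceeded miR-30c-5p in 2 of 4 abstinent saline libraries. In F0_MOR the ratio was 0.208, 0.450 and 0.693 and in F0_ABS-MOR 0.458, 0.924 and 1.55, a difference of 1.04 ± 0.36 (p = 0.0152, adjusted p = 0.0727, exact permutation test). This second difference fell short without any one of A, B, D, G, I, J, M or U, with adjusted p up to 0.13.

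miR-30c-5p relative to miR-30e-5p differed by −0.80 ± 0.24 (SE) in the morphine arm (exact permutation test, p = 0.0128, adjusted p = 0.0727) and by −0.48 ± 0.21 in the saline arm (adjusted p = 0.20). The morphine difference also fell short without 1 of A, B, D, G, I, J, M or N. In all, 2 of 6 ratios passed in the saline arm and 3 of 6 in the morphine arm, and each of these 5 involved miR-30c-5p. Ratios between miRNAs outside the family were not tested, so whether such shifts are particular to miR-30 is not known. With group medians in place of means 0 of 6 passed in either arm (smallest adjusted p = 0.15). Between treatments 0 of 6 passed at either timepoint. As the ratios share members, they are not independent of each other.

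**Figure D3:**
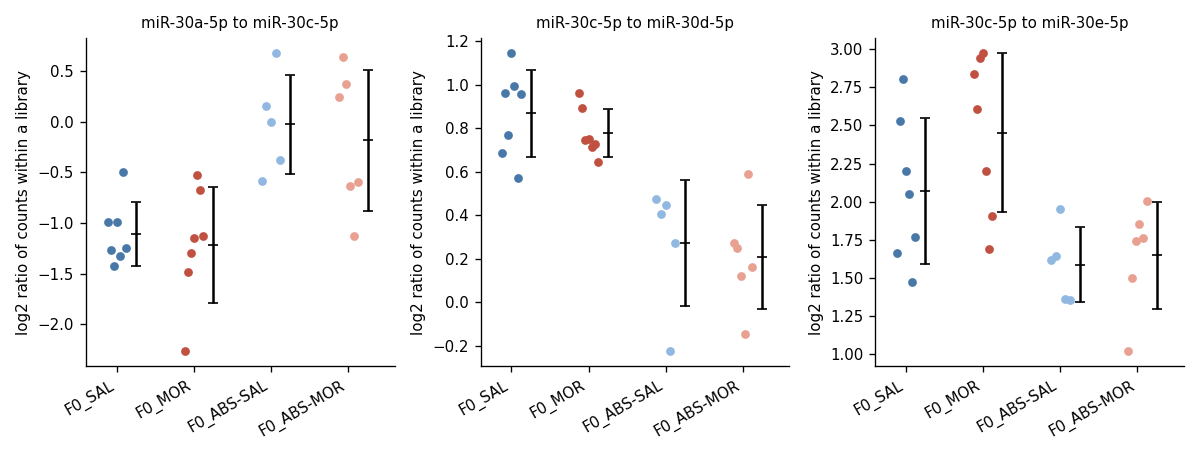
Log2 ratio of the counts of pairs of 5p members within a library, 1 point per library by group, with the group mean and SD as bars. For miR-30c-5p to miR-30d-5p every abstinent library lies below every nonabstinent one of its own treatment arm.

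The marker lists also differed between timepoints. Of the 5 tested sperm and late germ cell miRNAs, 4 were called lower in F0_ABS-SAL against F0_SAL and 1 in F0_ABS-MOR against F0_MOR. Of all miRNAs, 10.7% and 10.1% were called lower and 22.4% and 11.0% higher. With library totals alone, 1 and 14 of all 317 miRNAs were called lower. The sum of the sperm list was 396641 to 742741 CPM in F0_SAL, 322628 to 509968 in F0_MOR, 270687 to 394328 in F0_ABS-SAL and 175454 to 433287 in F0_ABS-MOR. Its unscaled shares of counts overlapped between timepoints, at 38.0% to 57.7%, 35.0% to 47.2%, 27.9% to 45.0% and 22.2% to 46.7% in these groups. Called higher in the saline and morphine arms were 3 and 1 of 4 muscle and stroma miRNAs, 3 and 1 of 5 epithelial miRNAs, and 2 and 2 of 2 endothelial miRNAs. The muscle and stroma sum was 13602 to 16720 CPM in F0_SAL, 13027 to 17617 in F0_MOR, 17549 to 81492 in F0_ABS-SAL (at most 28779 without library R) and 15623 to 36214 in F0_ABS-MOR. In the same order of groups, the epithelial sum was 6355 to 10516, 7263 to 10999, 8362 to 18373 (at most 11655 without library R) and 8525 to 16857 CPM. The endothelial sum was 546 to 783, 584 to 733, 708 to 2821 and 1036 to 1457 CPM in that order. Leukocyte miRNAs gave 1 of 6 called higher in each arm and 1 lower in the morphine arm, and erythroid miRNAs gave 3 of 3 lower in the morphine arm and 0 called in the saline arm. The part of these shifts in the miR-30 differences was not tested. In whole sperm preparations, fewer cells of a type and less RNA per cell cannot be told apart.

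Over the 25 libraries, after removal of group means, miR-30c-5p had a Spearman rho of −0.50 with the muscle and stroma sum, −0.53 with the epithelial sum and 0.24 with the sperm sum. miR-30a-5p had 0.35, −0.15 and 0.64 with the same sums. Without library R the values were −0.41, −0.41 and 0.16 for miR-30c-5p and 0.35, −0.24 and 0.68 for miR-30a-5p (n = 24). These are descriptions, and the points share the scaling of their library.

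The 5p and 3p arms of one hairpin did not keep a fixed proportion. The ratio of miR-30e-5p to miR-30e-3p counts ran from 0.663 to 6.06 over the 25 libraries, a 9.14-fold range, and fell below 1 in libraries F and H of F0_SAL and G and M of F0_MOR, where the 3p arm was the more abundant. The ratio of miR-30a-5p to miR-30a-3p ran from 3.54 to 26.5, a 7.50-fold range, and was lowest in library H. The other hairpins varied less, with miR-30c-5p to miR-30c-2-3p between 36.2 and 78.8 and miR-30d-5p to miR-30d-3p between 69.9 and 229.

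The 3p arms of miR-30a and miR-30e varied more than their 5p arms, and they moved together. miR-30e-3p covered a 5.34-fold and miR-30a-3p a 5.75-fold range of CPM, but their ratio to each other stayed between 0.451 and 0.751. Spearman's rho between them, after removal of group means, was 0.95 (n = 25 libraries). With its own 5p arm, rho was 0.27 for miR-30a-3p and −0.39 for miR-30e-3p. Their hairpins are on separate chromosomes. Whether reads of these arms could have been split between them under the mismatch allowed in mapping was not tested.

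**Figure D4:**
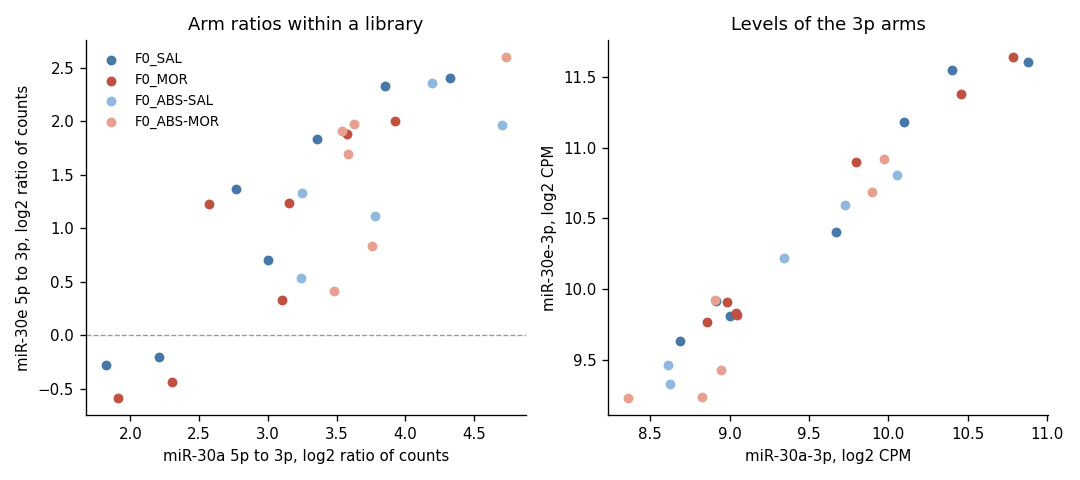
Left, log2 ratio of 5p to 3p counts for miR-30e against that for miR-30a in each library, with a dashed line where the miR-30e arms are equal. Right, log2 CPM of miR-30e-3p against miR-30a-3p. Libraries of all 4 groups lie near a rising line on the right and scatter more widely on the left. The 4 libraries below the dashed line are nonabstinent.

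None of the 16 arm comparisons, 4 ratios in 4 comparisons, passed. The smallest p was for miR-30a in the morphine timepoint comparison, where the ratio was 3.75, 8.60 and 15.2 (lowest, median and highest) in F0_MOR and 11.2, 12.2 and 26.5 in F0_ABS-MOR. The log2 difference was 0.85 ± 0.33 (SE; exact permutation test, p = 0.0280, adjusted p = 0.45). In the saline arm it was 0.78 ± 0.44 (adjusted p = 0.75). For miR-30e the timepoint differences were 0.30 ± 0.53 and 0.76 ± 0.52, smaller than or near the SD between libraries of one group, 0.72 to 1.12. For miR-30c-5p to miR-30c-2-3p they were −0.25 ± 0.18 and −0.13 ± 0.18, and for miR-30d 0.024 ± 0.23 and 0.0078 ± 0.20, in the saline and morphine arms.

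miR-30c-1-3p, the low 3p arm of the other miR-30c hairpin, was at 0.750 to 9.79 CPM and was not tested. Group means were 2.62 ± 1.42 (SD, n = 7) in F0_SAL, 5.10 ± 2.52 (n = 7) in F0_MOR, 2.57 ± 1.54 (n = 5) in F0_ABS-SAL and 3.34 ± 1.29 (n = 6) in F0_ABS-MOR, with ranges that overlapped. At 2 to 13 counts a library, counting error is large beside these levels.

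Members also differed in which other members they went with. After removal of group means, miR-30c-5p had a Spearman rho of 0.65 with miR-30d-5p but −0.11 with miR-30a-5p and −0.13 with miR-30e-5p over the 25 libraries. miR-30e-5p had its highest rho within the family with miR-30d-3p, at 0.73. The 5 miRNAs outside the family most like the summed 5p level were miR-34b-5p (0.73), a member of the sperm list, miR-103-3p (0.70), miR-340-5p (0.69), miR-203a-3p (0.67) and miR-20a-5p (0.67). With library totals alone in place of TMM, rho fell to 0.40 for miR-34b-5p and 0.55 for miR-340-5p.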

How the data were processed

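The authors prepared smRNA libraries with the NEBNext kit, used forward Illumina reads, trimmed and mapped them with sRNAbench to Rnor_6.0 with a mismatch allowed, and annotated them to miRBase. They deposited raw read counts per mature miRNA, 1 column per library and 0 columns unused here, in which the smallest count above 0 was 2. Reads with no molecular identifiers are not independent molecules. Column letters carry no replicate number, and the timepoint codes in the column names were matched to the groups of the labels by group size. All 300 pairs of libraries differed beyond sampling noise (chi-square per degree of freedom at least 35.1).

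Counts were tested in R 4.3.3 with the quasi-likelihood test of edgeR 4.0.16 (TMM, its filter on low counts, 1 model of the 4 groups, Benjamini-Hochberg over 317 miRNAs), with a call at adjusted p under 0.1 and absolute log2 fold change above 0.58. The SE is the log2 fold change divided by the square root of F. Ratios were taken as log2 with a prior count of 0.5 and tested by exact two-sided permutation (NumPy 2.4.6, adjusted with SciPy 1.17.1). The threshold was an adjusted p under 0.1. The edgeR test was tried on simulated counts, and the permutation test on simulated normal values. The authors used DESeq2, run here (1.42.0) as an alternative, beside limma-voom (limma 3.58.1), other scalings, filters, thresholds and covariates, and each library left out. The ncRNA counts the authors deposited for 3804 transcripts entered one scaling alternative, a joined TMM factor. Libraries are biological replicates per the labels. Named miRNAs were all members, those sharing a member's seed, the 5 most like the summed 5p level, marker lists, and those most like a single member, which were chosen after their values were seen. The members and lists were chosen with earlier results of these data known.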

Additional observations from a re-analysis of the deposited data

Results flagged for a closer look

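A library stood far from the others of its group, by Dixon's 95% limit, in 6 of 84 groups of values checked, where chance gives about 1 in 20, or 4.2. Library R of F0_ABS-SAL was low for miR-30c-5p, at 12.65 log2 CPM with the next at 13.17, and for the log2 ratio of miR-30c-5p to miR-30d-5p, at −0.22 with the next at 0.27. It was also the library with the highest muscle and stroma sum. Library S of F0_ABS-MOR was high for miR-30c-5p, at 13.66 log2 CPM with the next at 13.12, and for the log2 ratio of miR-30c-5p to miR-30c-2-3p, at 6.12 with the next at 5.65. Library E of F0_ABS-SAL was high for miR-30c-2-3p, at 7.75 log2 CPM with the next at 7.41. Library D of F0_ABS-MOR was high for the log2 ratio of miR-30a-5p to miR-30a-3p, at 4.73 with the next at 3.76.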

How the results depend on the processing

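With all libraries kept, members called in the saline timepoint comparison numbered 1 under every alternative with a count except that without a fold threshold, which gave 2. In the morphine timepoint comparison 2 were called without a fold threshold and 0 with no filter, with at least 10 counts in every library, or with only the 2 groups compared. With 1 library left out the counts ranged from 1 to 2 and from 0 to 1. miR-30c-5p stayed lower in both arms throughout (−0.73 to −0.31 and −0.65 to −0.42 with all libraries kept), and in the morphine arm its call was also lost with the joined TMM factor (−0.50, adjusted p = 0.11) and with the miR-30e arm ratio as a covariate (−0.50, adjusted p = 0.0269), the covariate having been chosen after seeing the data. With the joined factor miR-30a-5p was called instead (0.64, adjusted p = 0.0621). With group medians in place of means, 0 ratios of 5p members passed in either timepoint comparison (smallest adjusted p = 0.15). With 1 library left out, between 2 and 4 ratios passed in the saline arm (4 without Y), between 1 and 3 in the morphine arm, and between 0 and 1 for F0_MOR against F0_SAL (1, miR-30d-5p to miR-30e-5p, without H). The cause was not tested.

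Directions turned for values near 0. In the saline arm, library totals alone gave 0.26 for miR-30d-5p, 0.17 for miR-30e-5p and 0.24 for miR-30d-3p. In the morphine arm, miR-30d-5p and miR-30d-3p were at 0.16 and 0.15 with totals alone, 0.0597 and 0.0818 with the joined TMM factor, 0.0093 and 0.0124 with no filter, 0.0153 and 0.0371 with at least 10 counts, and 0.0013 and 0.0087 with only the 2 groups. The miR-30e arm ratio as a covariate gave 0.0305 for miR-30d-5p and 0.15 for miR-30a-3p. With 1 library left out, the morphine arm ranged from −0.0901 to 0.0194 for miR-30d-5p and from −0.13 to 0.0822 for miR-30d-3p, and the miR-30d 5p to 3p log2 ratio from −0.0864 to 0.20 in the saline arm and −0.10 to 0.12 in the morphine arm. Group medians gave −0.0314 for the miR-30e arm ratio in the saline arm and −0.0283 for the miR-30d arm ratio in the morphine arm. Among the 23 log2 fold changes of the treatment comparisons and the interaction not given singly, 20 changed sign under at least 1 alternative, none of them above 0.18 in size, and the smallest adjusted p was 0.30.

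The shares and marker correlations without library R were added after seeing the data. No paired analysis was possible because the columns carry letters and no replicate number, so the replicate block was not run. Depth limits miR-30c-1-3p alone among the members.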

Other observations

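Outside the family, the miRNAs that went most closely with miR-30e-3p over the 25 libraries, after removal of group means, were miR-25-3p (Spearman's rho 0.93), miR-375-3p (0.93) and miR-92a-3p (0.85). These and the miRNAs below were chosen after their values were seen. miR-25-3p was at 5160 to 16634 CPM in F0_SAL, 6157 to 19102 in F0_MOR, 4769 to 7642 in F0_ABS-SAL and 4118 to 7699 in F0_ABS-MOR. miR-30c-5p went most closely with miR-203a-3p (0.86) and miR-30a-5p with miR-101a-3p (0.82), so these 2 of the members that share a seed had different nearest miRNAs. miR-101a-3p averaged 1801 ± 382 CPM (SD, n = 7) in F0_SAL, 1970 ± 898 (n = 7) in F0_MOR, 4558 ± 1297 (n = 5) in F0_ABS-SAL and 4288 ± 2087 (n = 6) in F0_ABS-MOR.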
